A study of Homo sapiens with 11 samples.

Results

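The 10 genes described here encode 6 insulin-like growth factor (IGF) binding proteins (IGFBP2 to IGFBP7), the IGF1 receptor (IGF1R), the insulin receptor (INSR) and the receptor substrates IRS1 and IRS2. They were chosen by symbol, and all 10 were found among the 60676 genes of the count table and passed the filter on low counts. RNA from RWPE1 cells, an immortalized and non-tumorigenic line of human prostate epithelial cells, was sequenced in normoxia (0 h, 3 libraries) and after 6, 12 and 24 h at 1% O2 (3, 3 and 2 libraries). All libraries came from this 1 line, grown in serum-free keratinocyte medium with pituitary extract and epidermal growth factor. The labels state that 10 mM HEPES, a pH buffer, was added to the medium of cells kept in hypoxia and do not state it for normoxia, so the buffer and the low oxygen cannot be told apart in these comparisons. Whether replicates came from separate cultures on separate days is not stated, and p-values measure the spread between these libraries.

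IGF1, IGF2 and insulin signal through IGF1R and INSR, related receptor tyrosine kinases that phosphorylate IRS adaptor proteins, which in turn recruit phosphoinositide 3-kinase and activate AKT. Secreted IGF binding proteins hold IGFs away from the receptors or deliver them, and several also act on cells without an IGF. In the prostate epithelium this axis supports growth and survival, and IGFBP3 is a well-known binding protein of cultured prostate epithelial cells.

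The libraries held 27496009 to 49488345 counts, and 19981 genes were tested. Markers of basal prostate epithelium (KRT5, KRT14, KRT15 and TP63) summed to 7526 to 10408 CPM (counts scaled to a common library total) in normoxia and 14947 to 20216 CPM at 24 h. That sum was mostly KRT5 (7277 ± 1191 CPM in normoxia) and KRT14, while KRT15 (log2 change -1.73, -1.27 and -1.07 at 6, 12 and 24 h) and TP63 (-1.72, -0.95 and -1.50) were called lower at all 3 times. Of the general epithelial markers (608 to 672 CPM in normoxia, 1343 to 2083 CPM at 24 h), KRT8, KRT18 and EPCAM were called higher at all 3 times and CDH1 lower at 24 h (-1.06). The part of these markers in the results was not tested. Endothelial and leukocyte marker lists stayed below 0.51 CPM in every library, with CDH5 and LYZ at 0 in all normoxic libraries and no gene above 13 counts. The 5 fibroblast markers summed to 27.98 to 60.56 CPM, nearly all of it COL1A1. Smooth muscle markers (ACTG2, MYH11 and DES) summed to 0.65 to 3.57 CPM, with MYH11 at 10 to 141 counts. A check list of 6 hypoxia-induced genes (CA9, EGLN3, NDRG1, PDK1, BNIP3 and ANKRD37) summed to 1718 to 2022 CPM in normoxia and 6968 to 12869 CPM in the hypoxic libraries. The scaling factors of trimmed mean of M values (TMM) ran from 1.32 in normoxia to 0.539 in replicate 2 at 24 h, which stood apart from the others. Scaling by library size alone moved the median log2 change of all genes to -0.32, -0.50 and -0.97 at 6, 12 and 24 h, against -0.0021, -0.033 and -0.065 with TMM. Calls of higher and lower genes were then 2713 and 7130 at 6 h, 2116 and 8444 at 12 h and 2222 and 11305 at 24 h, against 5018 and 5534, 4827 and 5409, and 5974 and 6261 with TMM. Directions that turned under that scaling are named with the gene.

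The strongest change was in IGFBP3, which rose at all 3 times, while IGFBP5 fell at all 3. IRS1 and IRS2 were highest at 6 h, and IRS1 then dropped below its normoxic level. The receptors IGF1R and INSR were called lower at 24 h, and IGFBP2, IGFBP6 and IGFBP7 had their highest mean levels at that time. Unless another tool is named, adjusted p-values come from the quasi-likelihood test of edgeR, corrected after Benjamini and Hochberg over every gene tested. By this test 10 of 10 genes differed among the 4 times at an adjusted p under 0.05, as did 73.7% of all genes tested. At 6 h, 5 of the 10 were higher than in normoxia, where 25.1% of all genes were, and 1 was lower, where 27.7% were. At 12 h the counts were again 5 higher and 1 lower, against 24.2% and 27.1% of all genes. At 24 h, 6 were higher and 4 lower, against 29.9% and 31.3% of all genes. The median log2 change of the 10 genes was 0.83, 0.58 and 0.83 at the 3 times. These 3 comparisons share the same normoxic libraries. For 9, 9 and 10 of the 10 genes, TMM-scaled hypoxic and normoxic libraries did not overlap, where this held for 69.6, 72.3 and 73.0% of all genes.

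**Figure D1:**
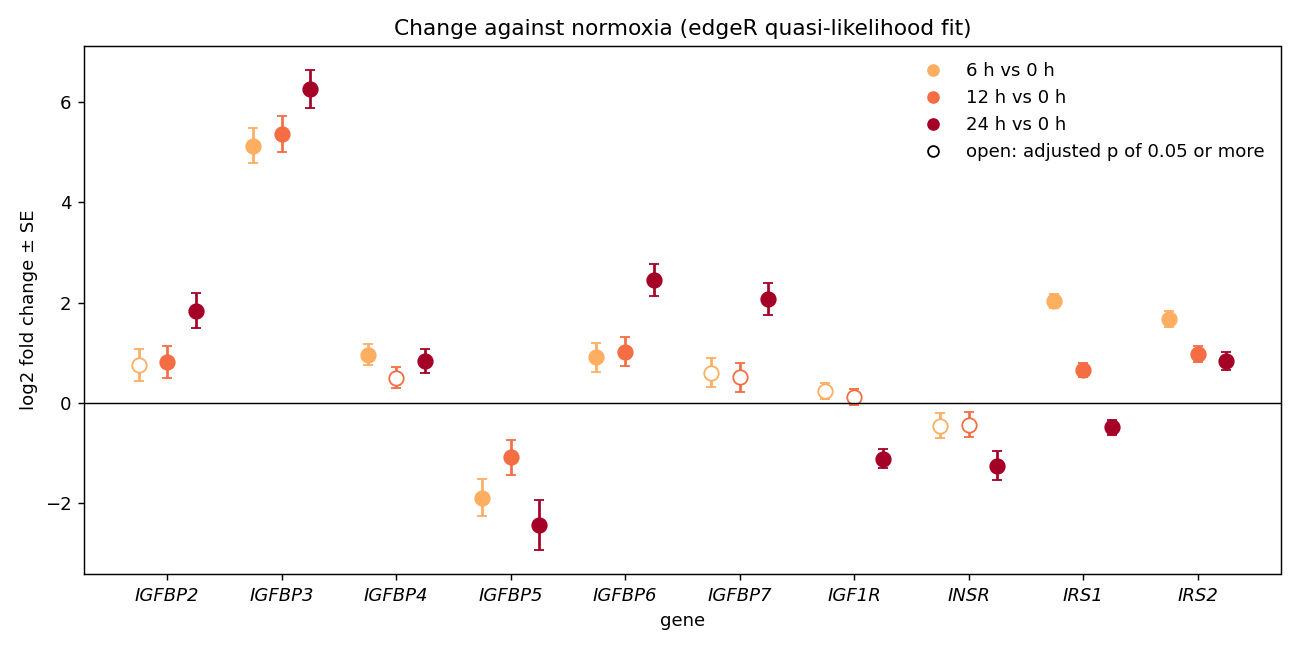
The log2 fold change against normoxia (y axis, with its standard error) is drawn for each of the 10 genes (x axis) at 6, 12 and 24 h of 1% O2, with open circles where the adjusted p was 0.05 or more. IGFBP3 lies between 5.14 and 6.26, IGFBP5 lies below 0 at each time, and IRS1 passes from 2.03 to -0.49.

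IGFBP3 (ENSG00000146674, chr7:45912245-45921874, minus strand), the main carrier of IGFs in blood and a secreted inhibitor of growth in many epithelia, was low in normoxia and rose at every time of hypoxia. Its TMM-scaled level was 4.58, 6.77 and 6.40 CPM in the normoxic libraries. It was 262, 213 and 150 CPM at 6 h, 128, 292 and 308 CPM at 12 h, and 417 and 492 CPM at 24 h. Every hypoxic library lay above every normoxic library, and the raw counts went from 198 to 266 in normoxia to 3776 to 13473 in hypoxia. The fitted log2 fold change was 5.14 ± 0.36 (SE) at 6 h, 5.36 ± 0.36 at 12 h and 6.26 ± 0.38 at 24 h, or 35.2-, 41.0- and 76.9-fold. The edgeR adjusted p was 7.5e-07, 1.0e-06 and 4.4e-07. Averaged over the 3 times, IGFBP3 had place 27 of 19981 genes by log2 change. In bulk RNA, a change in the share of cells that express a gene and a change in the RNA per cell cannot be told apart. From 12 to 24 h the log2 change was 0.91 (edgeR adjusted p 0.0541), and the 12 h libraries spread from 128 to 308 CPM. That change passed the threshold in 5 of 20 alternatives.

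The promoter of IGFBP3 is shown because this gene had the largest change of the 10. In the RefSeq table for GRCh38.p14, the 250 bases before its start are chr7:45921273-45921522 on the minus strand. They hold no annotated exon, but lie inside the gene's full span because 1 annotated transcript starts further upstream. Capitals mark GCGTG, 1 of the 2 cores (ACGTG and GCGTG) of the element bound by hypoxia-inducible factors, read on both strands, so that CACGC is GCGTG on the other strand.
IGFBP3: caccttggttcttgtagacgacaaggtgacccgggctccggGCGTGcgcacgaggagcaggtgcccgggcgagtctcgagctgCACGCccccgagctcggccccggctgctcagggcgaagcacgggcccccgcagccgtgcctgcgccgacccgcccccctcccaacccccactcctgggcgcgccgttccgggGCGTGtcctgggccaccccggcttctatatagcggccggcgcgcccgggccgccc
There were 3 matches, at bases -209 to -205, -167 to -163 and -55 to -51 before the start. GCGTG is present in 32.2%, ACGTG in 18.5% and either in 43.2% of the 35116 promoter windows of the same length, so a match is common. These shares count windows with 1 match or more and were not matched for GC. The median GC of all windows is 58.0%, and that of the IGFBP3 window 76.0%. Of the 10 genes, 9 had an entry in the table, with 11 windows in all, and IGFBP7 was the other. No core was present in the windows of IGFBP4, IGFBP5, IGFBP6, INSR and IRS2, and the IGFBP2 window held 1 at the second of its 3 starts only.

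The genes most like IGFBP3 over the 11 libraries, by Pearson's r of log2 CPM among 11895 protein-coding genes, were PFKFB4 (r = 0.994), which sets the level of a glycolytic activator, LDHA (r = 0.994), lactate dehydrogenase A, and EGLN3 (r = 0.992), an oxygen-dependent prolyl hydroxylase. The libraries fall into a normoxic and a hypoxic group and share their scaling, so r describes likeness only.

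**Figure D2:**
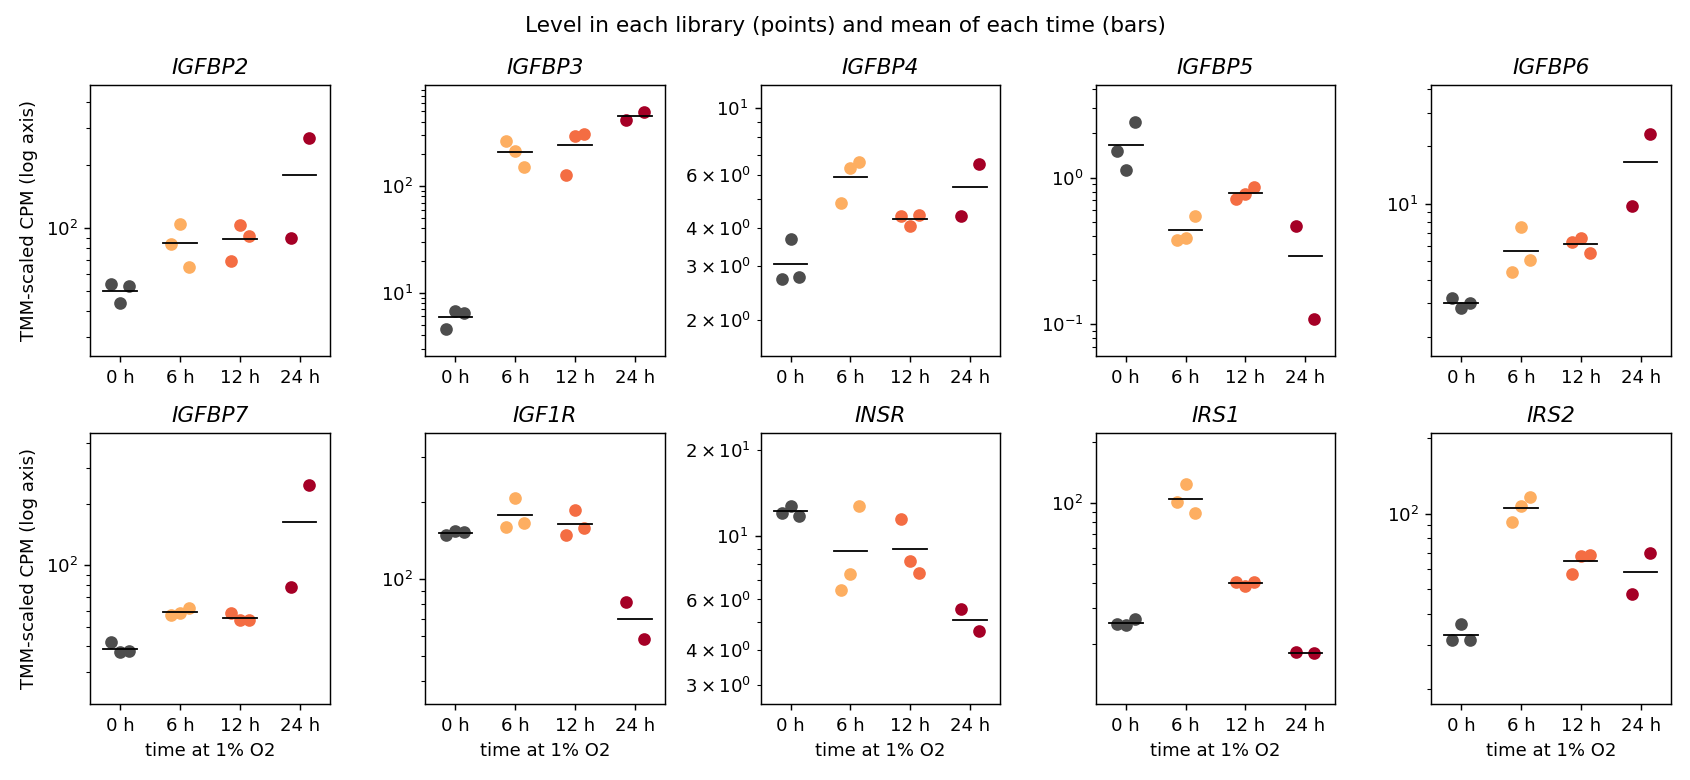
TMM-scaled CPM (y axis, log scale) in each library (points) is plotted against time at 1% O2 (x axis) for the 10 genes, with a bar at the mean of each time. The normoxic points of IGFBP3 sit at 4.58 to 6.77 CPM and all its hypoxic points at 128 CPM or more, while IRS1 peaks at 6 h and the 24 h points of IGFBP2, IGFBP6 and IGFBP7 lie far apart.

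IGFBP2 (ENSG00000115457, chr2:216632828-216664436, plus strand), which binds both IGFs and is made by many epithelial and tumor cells, was higher with TMM in every hypoxic library than in normoxia. Its level was 54.0, 43.7 and 52.7 CPM in normoxia, 84.0, 105 and 65.3 CPM at 6 h, 69.4, 103 and 91.5 CPM at 12 h, and 89.1 and 269 CPM at 24 h. By library size alone, replicate 3 of 6 h (69.6 CPM) and replicate 1 of 12 h (63.2 CPM) fell within normoxia (57.9 to 71.0 CPM). With TMM no hypoxic library overlapped normoxia, but the 24 h libraries differed from each other more than 6 and 12 h did from normoxia. The log2 change was 0.76 ± 0.32 at 6 h (edgeR adjusted p 0.0613), 0.81 ± 0.32 at 12 h (0.0478) and 1.84 ± 0.35 at 24 h (0.000656). The 6 h change passed the threshold in 7 of 20 alternatives. The call at 12 h was lost under 12 of 20 alternatives, with adjusted p up to 0.268, among them the fits without any 1 library of 0 or 6 h or without replicate 2 or 3 of 12 h (edgeR adjusted p 0.0515 to 0.161). The 24 h change was 0.81 without replicate 2 of that time and 2.37 without replicate 1.

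IGFBP6 (ENSG00000167779, chr12:53097436-53102345, plus strand), which prefers IGF2 over IGF1, rose at all 3 times. Its level was 3.19, 2.85 and 3.03 CPM in normoxia, 4.41, 7.56 and 5.08 CPM at 6 h, 6.29, 6.61 and 5.48 CPM at 12 h, and 9.71 and 23.3 CPM at 24 h. Each hypoxic library was above all normoxic ones, and both 24 h libraries were above those of 6 and 12 h. The log2 change was 0.91 ± 0.29, 1.02 ± 0.29 and 2.44 ± 0.32, with edgeR adjusted p of 0.0198, 0.0117 and 3.9e-05. Without 1 library (replicate 2 or 3 of 0 h, or replicate 2 of 6 h), the 6 h call was lost, with edgeR adjusted p of 0.0561 to 0.0995, and with library size alone the calls at 6 and 12 h were both lost (0.056 and 0.066). At 24 h the change was 1.66 without replicate 2 and 2.89 without replicate 1.

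IGFBP7 (ENSG00000163453, chr4:57030773-57110385, minus strand), a matrix-associated member with low affinity for IGFs and higher affinity for insulin, was called only at 24 h. Its level was 41.8, 37.5 and 37.8 CPM in normoxia, 57.2, 58.5 and 61.8 CPM at 6 h, 58.4, 54.0 and 53.9 CPM at 12 h, and 78.4 and 248 CPM at 24 h. With library size alone, the 12 h libraries (50.4 to 53.6 CPM) overlapped normoxia (48.7 to 55.1 CPM). The log2 change was then 0.28 at 6 h and 0.035 at 12 h (edgeR adjusted p 0.296 and 0.903). With TMM, all hypoxic libraries lay above all normoxic ones. The log2 change was 0.60 at 6 h (edgeR adjusted p 0.0979), 0.50 at 12 h (0.162) and 2.06 ± 0.32 at 24 h (0.000139). At 6 and 12 h it passed the threshold in 5 of 20 alternatives each, among them the fits without replicate 1 or replicate 2 of 24 h (edgeR adjusted p 0.000122 and 0.000119 at 6 h). The 24 h change was 0.99 without replicate 2 of that time and 2.61 without replicate 1. Exons of POLR2B on the other strand, with 1742 to 8449 counts, overlap 260 exonic bases of IGFBP7 (13.5%). The libraries were stranded, but the strand setting of the counting is not given in the sources used here. Whether the counting told the 2 genes apart in that stretch is therefore not known.

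IGFBP4 (ENSG00000141753, chr17:40443450-40457725, plus strand), which holds IGFs until the protease PAPPA cuts it, was higher at 6 and 24 h. Its level was 2.73, 3.68 and 2.77 CPM in normoxia, 4.85, 6.32 and 6.61 CPM at 6 h, 4.40, 4.09 and 4.43 CPM after 12 h, then 4.41 and 6.54 CPM after 24 h. The hypoxic libraries were above the normoxic ones throughout. The log2 change was 0.96 ± 0.21 (edgeR adjusted p 0.00215), 0.50 ± 0.21 (0.0660) and 0.84 ± 0.24 (0.00839). The 12 h change passed the threshold in 5 of 20 alternatives, and was 0.025 with library size alone (edgeR adjusted p 0.927). Scaled by library size alone, the 24 h change turned to -0.14, and without replicate 2 at 24 h it was 0.51 (edgeR adjusted p 0.103), and with sample quality weights in limma-voom the call was lost (adjusted p 0.134).

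IGFBP5 (ENSG00000115461, chr2:216672105-216695549, minus strand), a binding protein that attaches to the extracellular matrix, was the least abundant of the 10 genes and fell at all 3 times. It had 66, 42 and 99 raw counts in normoxia, 11, 12 and 29 at 6 h, 21, 26 and 38 at 12 h, and 11 and 2 at 24 h. In CPM these were 1.12 to 2.38 in normoxia, 0.376 to 0.550 at 6 h, between 0.710 and 0.868 at 12 h and 0.109 to 0.471 at 24 h, without overlap with normoxia. Log2 changes against normoxia were -1.90 ± 0.37, -1.09 ± 0.35 and -2.44 ± 0.50, with edgeR adjusted p of 0.00106, 0.0208 and 0.00114. The 12 h call was lost without replicate 3 of 0 h (edgeR adjusted p 0.123), replicate 1 of 12 h (0.0616) or replicate 2 of 12 h (0.0553). The 24 h change was -1.85 without replicate 2 of that time and -3.96 without replicate 1, and its call was lost with sample quality weights in limma-voom (adjusted p 0.192). IGFBP5 and IGFBP2 are neighbours on opposite strands in GRCh38, with their 3′ ends 7668 bases apart, and they changed in opposite directions at 24 h.

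Higher calls at all 3 times were made for IGFBP3, IGFBP6 and IRS2 among the 10 genes, where 14.8% of all genes had them. Lower calls at all 3 times were made for IGFBP5, where 17.9% of all genes had them.

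Levels between genes were compared as CPM per kilobase of annotated exon. In normoxia the order was IGFBP7 (20.2 ± 1.26, SD), IGF1R (10.9 ± 0.216), IGFBP2 (10.6 ± 1.18), IRS2 (4.04 ± 0.344), IRS1 (2.55 ± 0.0934), IGFBP6 (2.25 ± 0.125), IGFBP4 (1.39 ± 0.244), IGFBP3 (1.29 ± 0.257), INSR (1.13 ± 0.0477) and IGFBP5 (0.259 ± 0.0996), each over 3 libraries. By exonic length, IGF1R and IGFBP2 overlapped, as did IGFBP4 with IGFBP3 and IGFBP3 with INSR, and the other neighbours in the order did not. This normoxic order depends on the length used. By canonical transcripts IGFBP2 came before IGFBP7, with mean shares of the 6 binding proteins of 50.6 against 39.2%. By coding length IGFBP3 came before IGFBP4, at 5.96 against 3.48%. Exonic and canonical lengths are 4742 and 1414 bases for IGFBP2 but 13941 and 12235 for IGF1R, so their overlap depends on length too. At 6, 12 and 24 h IGFBP3 had the highest mean of the 10, at 45.5 ± 12.3, 53.1 ± 21.8 and 99.5 ± 11.5 CPM per kilobase. IGFBP7 came next with 30.7 ± 1.24, 28.7 ± 1.33 and 84.7 ± 62.3, and its libraries overlapped those of IGFBP3 at 12 and 24 h. This place depends on the length used: by canonical transcripts IGFBP2 and not IGFBP7 came next, with mean shares of the 6 binding proteins of 31.4 against 22.4% at 6 h, 31.1 against 20.2% at 12 h and 27.3 against 24.5% at 24 h. By coding length IGFBP2 had 21.1 against 17.5% at 6 h and 20.6 against 15.8% at 12 h, but 18.5 against 19.3% at 24 h.

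Of the summed level of the 6 binding proteins per kilobase, IGFBP3 made up 3.63 ± 0.883% in normoxia, 44.5 ± 6.90% at 6 h, 48.0 ± 11.2% at 12 h and 45.7 ± 16.1% at 24 h (SD). The share of IGFBP7 was 54.5 to 57.2% in normoxia and 30.9 ± 5.78, 28.1 ± 8.56 and 33.2 ± 11.1% at the 3 times. For IGFBP2 it was 27.1 to 30.9% in normoxia and 17.6 ± 2.60, 17.5 ± 1.31 and 14.9 ± 4.52% in hypoxia. The 3 remaining binding proteins together never passed the share of IGFBP2. The summed level was 34.1 to 37.9 CPM per kilobase in normoxia, 85.4 to 110 after 6 h, 79.6 to 121 after 12 h, and 160 and 313 at 24 h. These shares depend on the length used: with canonical transcripts (chosen after the data were seen) IGFBP2 and not IGFBP7 had the largest normoxic share, 50.6%, and the share of IGFBP3 rose from 3.27 to 41.5% at 6 h. By coding length, IGFBP2 had 44.8% and IGFBP7 40.3% in normoxia. The IGFBP3 share was then 5.96% in normoxia and 57.3, 60.0 and 59.0% at 6, 12 and 24 h. The ratio of IGFBP3 to IGFBP2, per exonic length, was 0.125 ± 0.0364 in normoxia and 2.57 ± 0.589, 2.78 ± 0.802 and 3.38 ± 2.10 at 6, 12 and 24 h. By canonical transcripts the ratio is lower, with mean shares of 41.5% for IGFBP3 and 31.4% for IGFBP2 at 6 h, and in replicate 2 of 24 h the shares were 32.4% and 32.8%.

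**Figure D3:**
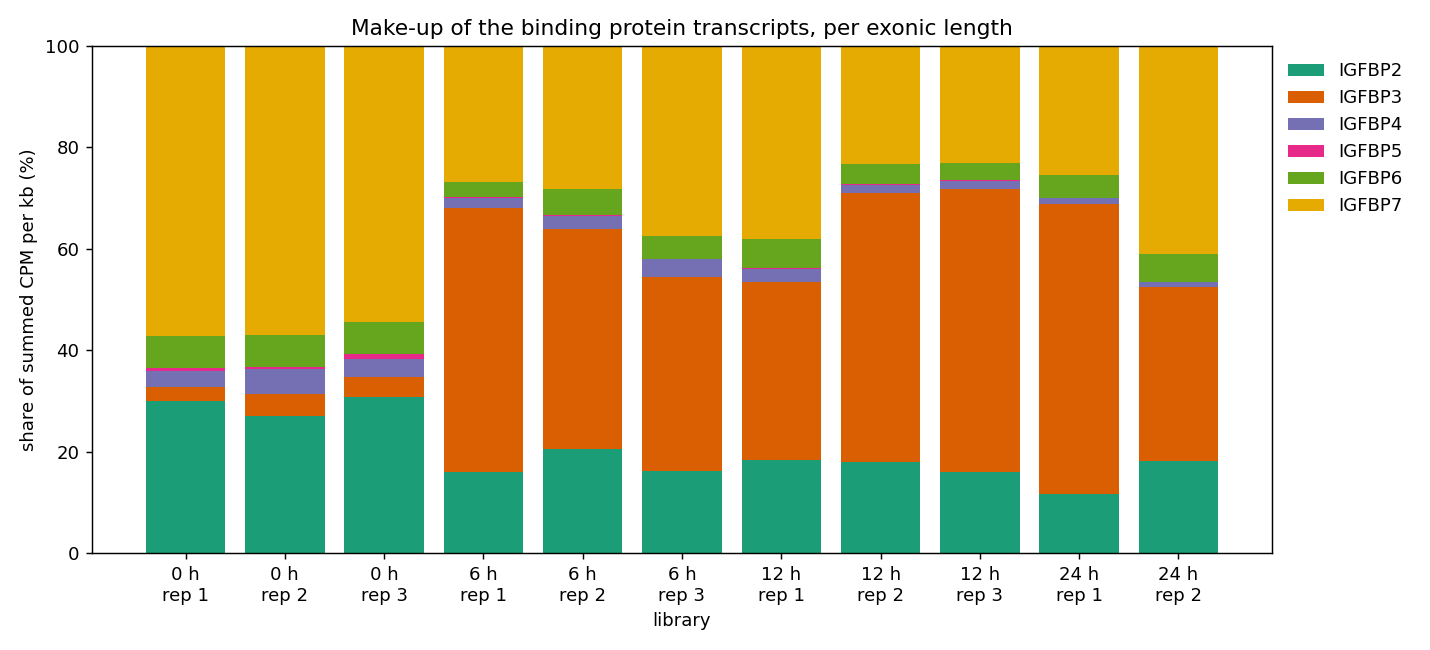
Stacked bars give the share (y axis, percent) of each of the 6 binding proteins in their summed CPM per kilobase of exon, for the 11 libraries (x axis). The IGFBP3 share is 2.64 to 4.35% in the normoxic libraries and 34.3 to 57.1% in the hypoxic ones.

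IGF1R (ENSG00000140443, chr15:98648539-98964530, plus strand), the receptor for IGF1 and IGF2, was not called by edgeR at 6 and 12 h and was lower at 24 h. Its level was 149, 154 and 153 CPM in normoxia, 160, 207 and 166 CPM at 6 h, 149, 186 and 158 CPM at 12 h, and 81.8 and 58.4 CPM at 24 h. Both 24 h libraries lay below every other library, and the 12 h libraries overlapped normoxia. Fitted log2 changes were 0.23 ± 0.16 (edgeR adjusted p 0.253), 0.11 ± 0.16 (0.584) and -1.12 ± 0.19 (0.000245). With library size alone the first 2 values turned to -0.097 and -0.35, and without replicate 2 of 12 h the second was -0.020. With sample quality weights in limma-voom the 6 h change was called higher (adjusted p 0.0308).

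The promoter of IGF1R (chr15:98648289-98648538, plus strand, GRCh38.p14) is shown because it held the most core matches of the 11 windows, 4 of GCGTG and 1 of ACGTG. The gene was not called higher by edgeR at any time. The GC of the window is 81.2%, against a median of 58.0% over all windows. Capitals mark the cores on either strand.
IGF1R: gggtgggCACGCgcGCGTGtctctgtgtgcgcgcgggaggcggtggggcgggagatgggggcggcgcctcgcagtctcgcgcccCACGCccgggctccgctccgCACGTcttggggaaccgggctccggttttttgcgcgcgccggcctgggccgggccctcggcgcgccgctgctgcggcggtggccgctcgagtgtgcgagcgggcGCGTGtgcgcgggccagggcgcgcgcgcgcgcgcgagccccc

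INSR (ENSG00000171105, chr19:7112255-7294414, minus strand), the insulin receptor, whose 2 splice forms are not separated by gene counts, was also lower at 24 h. Its level was 12.1, 12.8 and 11.8 CPM in normoxia, 6.46, 7.36 and 12.8 CPM at 6 h, 11.5, 8.18 and 7.42 CPM at 12 h, and 5.56 and 4.63 CPM at 24 h. Replicate 3 at 6 h and replicate 1 at 12 h were close to normoxia, and the other hypoxic libraries were lower. Against normoxia, the log2 change was -0.46 ± 0.25 (edgeR adjusted p 0.134), -0.44 ± 0.25 (0.150) and -1.26 ± 0.29 (0.00267). Without replicate 3 at 6 h the 6 h change was -0.82 (edgeR adjusted p 0.00751). With sample quality weights in limma-voom the 24 h call was lost (adjusted p 0.0918), and those at 6 and 12 h were gained (0.00847 and 0.000175).

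The ratio of IGF1R to INSR, per exonic length, was 9.68 ± 0.385 in normoxia, 17.1 ± 6.18 at 6 h, 14.8 ± 4.08 at 12 h and 10.6 ± 1.16 at 24 h. At 6 h every library was above normoxia, but replicate 3 (10.1) only just. The exact two-sided permutation test of log2 ratios gave p = 0.1 at 6 h and 0.2 at 12 h, and 0.1 is the smallest p that 3 against 3 libraries allow.

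IRS1 (ENSG00000169047, chr2:226731312-226799820, minus strand), the adaptor first described for the insulin receptor, rose sharply at 6 h and then fell. Its level was 25.05, 24.95 and 26.62 CPM in normoxia, 101, 123 and 88.8 CPM at 6 h, 40.5, 38.9 and 40.7 CPM at 12 h, and 18.2 and 18.1 CPM at 24 h. No library of 1 time overlapped those of another. The fit gave log2 changes of 2.03 ± 0.14 at 6 h (edgeR adjusted p 6.9e-07), 0.65 ± 0.14 at 12 h (0.00178) and -0.49 ± 0.16 at 24 h (0.0149). A higher call at 6 h together with a lower call at 24 h was made for 320 of the 19981 genes (1.60%), and IRS1 was the only one of the 10. The 24 h call was lost with sample quality weights in limma-voom (adjusted p 0.221). The 12 h call was lost with library size alone (log2 change 0.18, edgeR adjusted p 0.428).

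IRS2 (ENSG00000185950, chr13:109752695-109786583, minus strand), the adaptor that carries much of the insulin signal in liver and beta cells, rose at 6 h and with TMM stayed above normoxia. Its level was 31.3, 36.2 and 31.4 CPM in normoxia, 92.3, 108 and 116 CPM at 6 h, 57.7, 67.9 and 68.5 CPM at 12 h, and 47.9 and 69.6 CPM at 24 h. By library size alone, the 24 h libraries (40.8 and 37.5 CPM) did not lie above normoxia (40.3 to 47.9 CPM). With TMM every hypoxic library exceeded the normoxic ones, with the 6 h libraries the highest. Log2 changes against normoxia were 1.68 ± 0.16 (edgeR adjusted p 7.1e-06), 0.97 ± 0.16 (0.000385) and 0.83 ± 0.18 (0.00143). Scaled by library size alone, the 24 h change turned to -0.14, against -0.97 for the median of all genes.

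The promoters of both substrates are shown because these genes shared the 6 h peak. The window of IRS1 is chr2:226799821-226800070 and that of IRS2 is chr13:109786584-109786833, both on the minus strand of GRCh38.p14. Capitals mark the 1 core, GCGTG, in the window of IRS1, and the IRS2 window has none. The GC of these windows is 80.8% for IRS1 and 76.4% for IRS2.
IRS1: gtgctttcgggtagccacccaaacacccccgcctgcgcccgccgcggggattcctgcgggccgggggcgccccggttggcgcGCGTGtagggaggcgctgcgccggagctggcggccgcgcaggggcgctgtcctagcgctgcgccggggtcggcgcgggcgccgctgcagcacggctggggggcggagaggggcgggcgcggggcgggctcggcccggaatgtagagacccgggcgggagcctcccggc
IRS2: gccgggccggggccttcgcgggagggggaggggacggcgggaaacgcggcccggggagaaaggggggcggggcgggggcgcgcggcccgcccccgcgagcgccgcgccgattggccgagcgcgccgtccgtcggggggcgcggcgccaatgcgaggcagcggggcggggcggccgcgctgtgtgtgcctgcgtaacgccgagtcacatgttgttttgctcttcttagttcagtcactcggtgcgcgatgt

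The ratio of IRS2 to IRS1, per exonic length, was 1.59 ± 0.174 in normoxia, 1.27 ± 0.298 at 6 h, 1.99 ± 0.208 at 12 h and 3.98 ± 1.05 at 24 h. Both 24 h libraries (3.24 and 4.72) lay above all others. The exact two-sided permutation test of log2 ratios gave p = 0.3 at 6 h and 0.2 at 12 h. No permutation test was run at 24 h, where 2 libraries stand against 3.

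**Figure D4:**
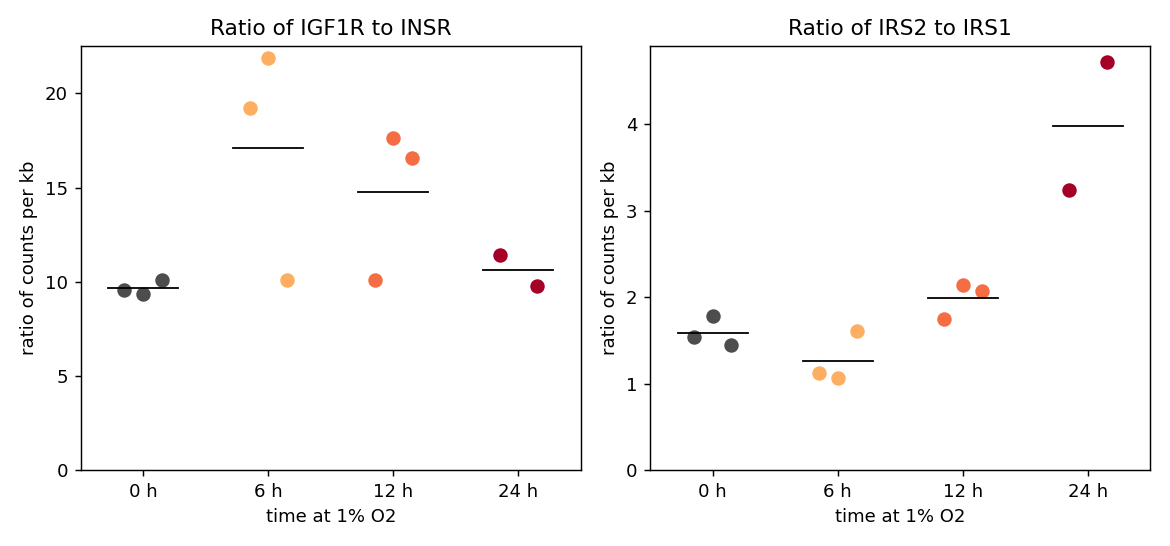
The ratio of counts per kilobase of exon (y axis) is plotted for each library against time at 1% O2 (x axis), for IGF1R to INSR (left) and IRS2 to IRS1 (right), with a bar at each mean. The IGF1R to INSR ratio spreads from 10.1 to 21.9 at 6 h, and the IRS2 to IRS1 ratio is highest in the 24 h libraries, at 3.24 and 4.72.

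Between times of hypoxia, the substrates were the members that changed from 6 to 12 h. IRS1 fell by 1.38 (edgeR adjusted p 0.00066) and IRS2 by 0.70 (0.0298) on the log2 scale, and 0 of 10 genes were called higher, by edgeR or by limma-voom and DESeq2, with 0 also at an unadjusted p under 0.05. Of all genes, 3.07% were lower and 1.88% higher from 6 to 12 h. A higher call at 6 h followed by a lower call from 6 to 12 h was made for 1.93% of all genes. The IRS2 call was lost when any 1 library of 0, 6 or 12 h was left out (edgeR adjusted p 0.0508 to 0.11), while the change stayed between -0.79 and -0.63. From 12 to 24 h, 3 of 10 genes were higher and 2 lower, against 15.1% and 13.3% of all genes. The higher ones were IGFBP2 (log2 change 1.02, edgeR adjusted p 0.0438), IGFBP6 (1.43, 0.00663) and IGFBP7 (1.56, 0.0049), and the lower ones IGF1R (-1.23, 0.00171) and IRS1 (-1.14, 0.0013). Without replicate 2 of 24 h, the change of IGFBP2 was 0.00097 and that of IGFBP6 0.65 (edgeR adjusted p 0.103). The change of IGFBP7 was then 0.49 (edgeR adjusted p 0.0205), against 2.14 without replicate 1 of 24 h. In a fit of the 12 and 24 h libraries only, these 5 genes had edgeR adjusted p of 0.0658 (IGF1R and IRS1) to 0.165 (IGFBP2) and their calls were lost. That fit called 0 of all 17807 genes tested.

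Transcripts of the ligands were at or near 0 counts. INS had 0 counts in every library, which allows at most 0.0606 to 0.109 CPM by library size (3 counts per library, counting error only). IGF1 had 1 count in 1 normoxic library and 0 in the other 10, and IGF2 had 0 to 4 counts. IGFBP1, the binding protein next to IGFBP3 on chromosome 7, had 1 count in 1 library at 6 h and 0 in the others, while IGFBP3, 18584 bases away, had 3776 to 13473 in hypoxia. IGFBPL1, an IGFBP-like protein, had 0 to 3 counts in normoxia and 31 to 33 at 6 h, 24 to 32 at 12 h, and 9 and 12 at 24 h. Against the level of 3 counts in a normoxic library, its mean TMM-scaled level was 11.4-fold higher at 6 h, 9.91-fold at 12 h and 6.50-fold at 24 h. These folds depend on the scaling: the fitted 24 h log2 change was 3.53 with TMM and 2.59 with library size alone.

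The other genes of the pathway, 41 in a list of ligands, further receptors and binding proteins, IGFBP proteases and their inhibitors, adaptors, kinases and FOXO factors, were counted whole, and 32 could be tested. At 6 h, 11 of the 32 were higher and 8 lower (25.1% and 27.7% of all genes), at 12 h 12 and 7 (24.2% and 27.1%), and at 24 h 7 and 12 (29.9% and 31.3%). Their median log2 change was 0.20, 0.093 and -0.12. The protease PAPPA, which cuts IGFBP4, had 1 to 9 counts per library and was not tested. Its inhibitors STC1 and STC2 were called higher at all 3 times. STC2 had 75.6 ± 14.1 CPM in normoxia and 230 ± 29.7, 190 ± 30.7 and 179 ± 30.1 CPM at 6, 12 and 24 h (edgeR adjusted p 2.5e-05, 0.00012 and 0.000207), but with library size alone its 24 h change was 0.37 (0.254) and the call was lost. STC1 had 1, 1 and 6 counts in normoxia and 6 to 28 in hypoxia, with log2 changes of 1.90, 2.98 and 2.79 (edgeR adjusted p 0.0392, 0.00224 and 0.00706), and its call was lost in 6 of 18 alternatives at 6 h and in 3 of 18 at 24 h. The 6 h losses included the fits without replicate 1 or 2 of 0 h or replicate 1 or 2 of 6 h (edgeR adjusted p up to 0.134), and the 24 h losses the fit without replicate 1 of 24 h (0.0925). Without replicate 3 of 0 h, which held 6 of its counts, the STC1 changes were 3.18, 4.24 and 4.06.

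Among adaptors and inhibitors of the receptors, SH2B2, an adaptor of the insulin receptor, rose by 1.44, 1.49 and 1.14 on the log2 scale at 6, 12 and 24 h, but the 24 h value was 0.16 with library size alone (edgeR adjusted p 0.59). GRB10, which restrains both receptors, changed by -0.71, -1.25 and -1.58. PTPN1, the phosphatase that removes phosphate from the insulin receptor, rose by 1.23, 1.05 and 0.49, but its 24 h value turned to -0.41 with library size alone, and its 24 h call was also lost with no filter (edgeR adjusted p 0.156) and with sample quality weights in limma-voom (adjusted p 0.108). TRIB3, a pseudokinase that binds AKT, went from 388 ± 18.2 CPM in normoxia to 118 ± 17.2 and 116 ± 11.8 CPM at 6 and 12 h and 281 ± 19.6 CPM at 24 h, where its call was lost in 5 of 20 alternatives, among them the fits without replicate 2 or replicate 3 of 0 h. In the fit with TMM and the filter, each of these passed the test at all 3 times, with edgeR adjusted p between 3.1e-06 and 0.0255.

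Downstream, the catalytic subunit PIK3CB (log2 change -0.85, -0.56 and -1.07) and the kinase AKT1 (-0.34, -0.51 and -0.70) were lower at all 3 times, though the 6 h call of AKT1 was lost in 7 of 20 alternatives, among them the fits without replicate 1 or 3 of 0 h, replicate 1 or 3 of 6 h, or replicate 3 of 12 h. Of the FOXO transcription factors, which AKT holds out of the nucleus, FOXO1 went from 38.3 ± 1.34 CPM in normoxia to 15.5 ± 1.06, 22.5 ± 8.33 and 11.6 ± 2.27 CPM (edgeR adjusted p 0.000593, 0.0159 and 0.000207). FOXO3 was higher at 6 h (log2 change 0.93, edgeR adjusted p 0.000111) and 12 h (0.41, 0.0207), and not called at 24 h (-0.24, 0.184). Its 12 h value turned to -0.050 with library size alone, and the call was lost in 6 other alternatives of 20, among them the fits without replicate 1 or 2 of 0 h or replicate 2 or 3 of 12 h (edgeR adjusted p up to 0.108). FOXO4 was called lower at 24 h (-0.48, 0.0322), but the call was lost in 9 of 20 alternatives, among them the fits without any 1 library of 0 h, without replicate 3 of 12 h, or without replicate 2 of 24 h (-0.27, edgeR adjusted p 0.169). Its 6 h change of 0.30 (0.117) turned to -0.024 with library size alone. The letters GTAAACA, a FOXO motif, were found in the promoter window of IGFBP6 alone among the 11 windows, and in 2.98% of all windows. Of the 250 bases of that IGFBP6 window 231 are annotated exon of IGFBP6 itself, among them the match at bases -186 to -180.

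**Figure D5:**
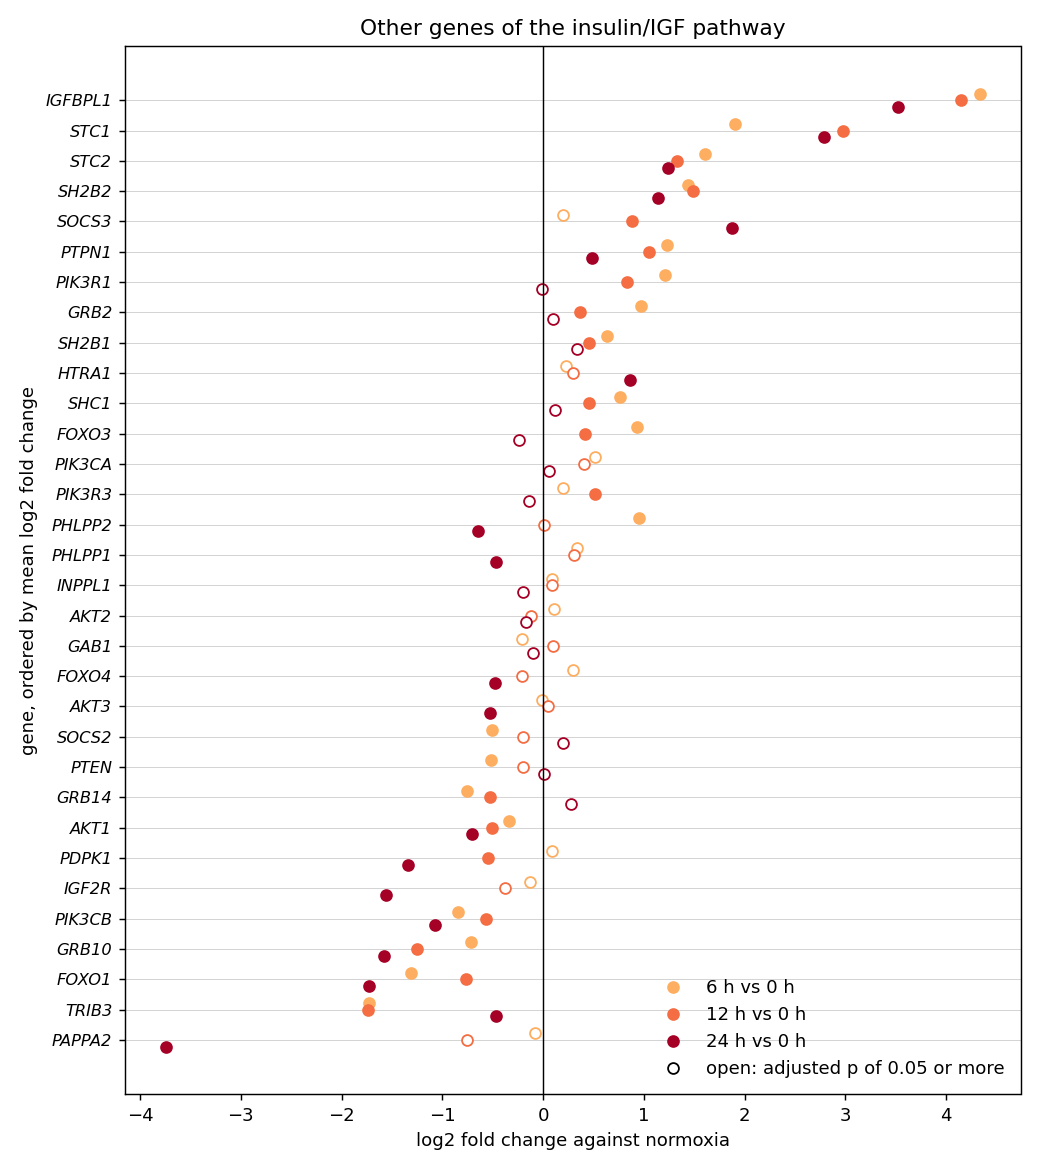
The log2 fold change against normoxia (x axis) is drawn for the 32 tested genes of the pathway list (y axis, ordered by their mean change) at 6, 12 and 24 h, with open circles where the adjusted p was 0.05 or more. IGFBPL1, STC1 and STC2 lie at the top with positive values at each time, and GRB10, FOXO1 and TRIB3 near the bottom with negative values at each time.

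For the other members, the gene with the most similar pattern, by Pearson's r over the 11 libraries, was CKS1B for IGFBP2 (r = 0.983), CA13 for IGFBP4 (0.971), SEPTIN8 for IGFBP5 (0.987), CD151 for IGFBP6 (0.989) and RBX1 for IGFBP7 (0.992). It was ZNF8 for IGF1R (0.982), TLN2 for INSR (0.938), HS6ST1 for IRS1 (0.984) and YKT6 for IRS2 (0.985). These are descriptions of likeness over libraries that share their scaling.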

How the data were processed

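Single-end reads of stranded total RNA libraries were trimmed with Trimmomatic, aligned with STAR to GRCh38 and counted per gene with featureCounts by the authors, who deposited raw counts for 60676 Ensembl genes in 11 libraries. The paper's other 24 h library was not analysed here, 0 columns of the table were left over, and strand and multi-mapping settings of the counting are not given in the sources used here.

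Symbols and exonic lengths came from GENCODE release 44 (60357 IDs matched). filterByExpr (minimum count 10, minimum total 15) kept 19981 genes. edgeR 4.0.16 scaled libraries with TMM and fitted its quasi-likelihood model to all 11, with a mean per time and no covariate. Calls are at an adjusted p under 0.05 (Benjamini-Hochberg over tested genes). SE is the absolute log2 change over the square root of F. Log2 CPM used a prior count of 2. The fit recovered changes in simulated data, but the settings, recovery rate and false calls of that simulation are not given here. It therefore cannot show how the fit behaves with the uneven scaling factors of these libraries, and no conclusion is drawn from it.

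The 10 genes, the pathway list and the marker lists were chosen with earlier results of these data known. Named pathway genes are up to 2 per group with the largest mean change among those called one way at all 3 times, with the ligands, PAPPA, STC1, STC2 and the FOXO genes. Genes most alike needed a mean of at least 1 CPM.

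Alternatives were limma-voom (3.58.1) with and without quality weights, DESeq2 (1.42.0), other scalings and filters, a replicate block, only the compared times, and each library left out. Same-numbered libraries did not deviate together (r from -0.156 to 0.207 over 15 pairs), so the numbers were not taken as pairs.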

Additional observations from a re-analysis of the deposited data

Results flagged for a closer look

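The change against normoxia differed between times for 7 results, tested as the difference between the hypoxic times themselves (quasi-likelihood test of edgeR, p adjusted after Benjamini and Hochberg). From 6 to 12 h the log2 difference was -1.38 for IRS1 (adjusted p 0.00066) and -0.70 for IRS2 (0.0298), lower in 3 of 3 libraries each. From 12 to 24 h it was 1.02 for IGFBP2 (0.0438, 1 of 2 libraries above the 12 h range), 1.43 for IGFBP6 (0.00663), 1.56 for IGFBP7 (0.0049), -1.23 for IGF1R (0.00171) and -1.14 for IRS1 (0.0013), the last 4 in 2 of 2 libraries. Without replicate 1 or 2 of 24 h, the IGFBP7 difference was 2.14 or 0.49.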

How the results depend on the processing

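Over 42 changes of the 10 genes under 836 alternatives, 730 kept their direction and side of the threshold, 55 lost a call, 44 gained one and 7 turned, and the cause was not tested. The turned values were, with library size alone, IGF1R at 6 h (-0.097) and 12 h (-0.35), IGFBP4 (-0.14) and IRS2 (-0.14) at 24 h and IGFBP4 from 12 to 24 h (-0.16). Leaving out 1 library gave -0.020 (without replicate 2 of 12 h) to 0.18 for IGF1R at 12 h, and -0.45 to 0.076 (without replicate 1 of 24 h) for IRS2 from 12 to 24 h. With library size alone, FOXO4 at 6 h (-0.024), FOXO3 at 12 h (-0.050) and PTPN1 at 24 h (-0.41) also turned. At 6 h IGFBP3, IGFBP4, IGFBP5, IRS1 and IRS2 kept their calls under every alternative that tested them. The same held for IGFBP3 and IRS2 at 12 h and for IRS1 from 6 to 12 h. At 24 h it held for IGFBP2, IGFBP3, IGFBP6, IGFBP7 and IGF1R, though the size of the change moved with the library left out.

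Counts of called members moved as follows. With sample quality weights, 8 were higher and 2 lower at 6 h, 2 lower at 12 h, 1 lower at 24 h and 1 higher from 12 to 24 h. With library size alone, 2 were lower at 6 h, 2 higher and 2 lower at 12 h, and 5 lower from 12 to 24 h. At least 10 counts in every library removed IGFBP5, leaving 0 lower at 6 and 12 h, and no filter gave 4 lower from 12 to 24 h. Of all genes, the first filter called 4122 and 4003 of 14492 lower at 6 and 12 h. No filter called 3344 of 39835 lower from 12 to 24 h. With only the 2 compared times, 2 were lower at 12 h (6661 of all 18657 genes tested), and 0 higher and 0 lower from 12 to 24 h. From 12 to 24 h that fit called 0 of all 17807 genes tested, so the loss is not particular to these members. Leaving out 1 library gave 1 to 2 lower at 6 h, 0 to 1 lower at 12 h, 1 to 2 lower from 6 to 12 h, and 1 to 4 higher from 12 to 24 h. Of all 19981 genes, quality weights called 6549 higher and 6633 lower at 6 h, 7142 and 7766 at 12 h, 3719 and 2450 at 24 h (6169 against 12235 in all), 2117 and 2372 from 6 to 12 h (4489 against 989) and 684 and 409 from 12 to 24 h (1093 against 5668), and library size alone called 848 and 4610 from 12 to 24 h. Without 1 library of 0, 6 or 12 h, 4621 to 5500 of all genes were called lower at 6 h and 4362 to 5428 at 12 h. From 6 to 12 h, 36 to 671 were then lower, and from 12 to 24 h 1489 to 3059 were higher. The fits without a library of 24 h, which the counts of members include, leave 1 library at that time. Their shares of all genes are not given. Of the 32 pathway genes, library size alone called 7 higher at 6 h, 5 higher and 13 lower at 12 h, and 2 higher and 23 lower at 24 h, and quality weights called 12 lower at 12 h and 4 higher and 6 lower at 24 h.

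With the replicate block, the counts at 6, 12 and 24 h were unchanged (5 and 1, 5 and 1, 6 and 4). From 12 to 24 h IGFBP2 lost its call (0.89, edgeR adjusted p 0.0788), leaving 2 higher. Of all 19981 genes, the block called 4766 higher and 5358 lower at 6 h, 4628 and 5177 at 12 h, and 5578 and 5956 at 24 h. From 12 to 24 h it called 2302 of all genes higher, against 3019 without the block. Depth limits IGFBP5 most, with 2 to 99 counts, and the 24 h values rest on 2 libraries.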

Other observations

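Other pathway genes were chosen after their values were seen. PAPPA2, a second protease of IGF binding proteins, had 21, 26 and 37 counts in normoxia, 9 to 29 at 6 and 12 h, and 1 in each 24 h library (edgeR adjusted p 0.00199 at 24 h). IGF2R, which clears IGF2 from the cell surface, went from 327 ± 21.6 CPM in normoxia to 111 ± 34.3 CPM at 24 h (log2 change -1.56, edgeR adjusted p 6.4e-05). SOCS3, an inhibitor of cytokine and insulin signalling, was higher at 12 h (0.88, 0.00993) and at 24 h (1.88, 7.7e-05).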
